A study of Mus musculus with 6 samples.

Results

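The axon guidance genes of the cerebellum were read in 6 RNA-seq libraries, as the 69 gene symbols that belong to the semaphorin, plexin, neuropilin, Slit, Robo, netrin, DCC, UNC5, ephrin and Eph families, of 24421 symbols counted in all. The members were taken by symbol with no measured value in the rule, but they were chosen with earlier results of these data known. The tissue was the Purkinje neuron layer microdissected together with the molecular layer, from mice of 1 year. The libraries came from 3 wild type animals (WT) and 3 animals of the STIM1 knockout genotype (KO), and no treatment is named for either genotype. STIM1 is the calcium sensor of the endoplasmic reticulum, and the labels name neither the deleted exons nor a Cre driver.

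These families are the classical cue systems of growing axons. Semaphorins bind plexins, with neuropilins as co-receptors of the secreted class, Slits bind Robo receptors, netrins bind DCC and the UNC5 receptors, and membrane-bound ephrins bind Eph receptor tyrosine kinases and can signal back into the cell that carries them. In the adult brain many of them remain at synapses. In the cerebellum, Sema3a and Sema7a are known as signals from Purkinje cells to climbing fibre synapses, and Sema6a with its receptor Plxna2 as guides of migrating granule cells.

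No guidance gene passed the comparison of the genotypes, and 1 of them, the Slit receptor Robo2, came nearest. Robo2 had 26, 29 and 33 counts over the WT libraries, replicates 1 to 3, and 19, 16 and 17 over the KO libraries. No KO value reached the lowest WT value. Of the 69 genes, 12 had enough counts to be tested, 53 had counts below the filter on low values, and 4 had no count in any library. The gene with the most counts was Epha1, an Eph receptor best known from epithelia, with 463 of the 2340 guidance counts.

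The libraries held 645994 to 764839 counts in genes, which were 1.16% to 1.23% of the uniquely aligned reads, while 98.8% fell in no gene in each library. Guidance genes took 329 to 502 counts per library, or 0.0499% to 0.0656% of the gene counts. Stim1, the targeted gene, had 7, 21 and 3 counts over the WT libraries and 4, 3 and 2 over KO, too few to check the genotype. Counts of 4 Y-linked genes came to 28 in WT replicate 3 and 14 in KO replicate 3 and to 0 in the rest, so 1 library of each genotype stands apart, and without both Robo2 had a log2 fold change of -0.79 (unadjusted p 0.0373 in edgeR). All 17 Purkinje cell markers on the list had counts, Calb1, Car8 and Itpr1 among them, as did all 13 markers of granule cells and all 13 of Bergmann glia and astrocytes. All 9 oligodendrocyte, 7 microglia and 7 endothelial markers had counts as well. Summed microglia markers reached at most 50.7 CPM, which are counts scaled to library size, endothelial markers 44.3 CPM and oligodendrocyte markers 147 CPM. The highest sums were 4048 CPM for Purkinje cell markers, 1842 CPM for Bergmann glia and astrocyte markers and 1000 CPM for granule cell markers. Of the 5 erythrocyte markers 4, the globin genes, were at 0. Which strand was counted is not given in the sources used here, so for a gene whose exons overlap those of a gene read in the other direction, the counts of the pair cannot be told apart. For a gene without such overlap, too, the strand that its counts come from is not known and was not tested.

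Of the 12 tested genes, 7 share at least 50 bases of exon with an annotated gene on the opposite strand. For Epha1, Ntn3 and Plxna4 the shared part includes coding sequence, and these stretches are shown because a read from them belongs to the guidance gene on one strand and to its partner on the other. Each is written 5′ to 3′ on the minus strand of GRCm38, the coding strand of all 3 genes, from the GENCODE M21 transcripts. Capitals mark bases that are also exon of the opposite gene. The Epha1 stretch (chromosome 6, 42358936 to 42359091) lies in exon of Zyx, which encodes the focal adhesion protein zyxin, the Ntn3 stretch (chromosome 17, 24208841 to 24208986) in exon of the antisense gene BC028777, and the Plxna4 stretch (chromosome 6, 32310463 to 32310592) in exon of the antisense gene Plxna4os3.
Epha1: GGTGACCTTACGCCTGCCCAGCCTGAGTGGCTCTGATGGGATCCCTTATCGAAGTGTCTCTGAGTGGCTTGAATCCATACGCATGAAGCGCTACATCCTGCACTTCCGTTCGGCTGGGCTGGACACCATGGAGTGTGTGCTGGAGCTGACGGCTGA
Ntn3: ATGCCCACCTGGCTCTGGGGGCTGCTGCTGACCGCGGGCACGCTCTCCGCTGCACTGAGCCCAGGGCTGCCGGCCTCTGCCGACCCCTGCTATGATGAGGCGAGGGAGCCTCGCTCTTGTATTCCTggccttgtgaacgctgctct
Plxna4: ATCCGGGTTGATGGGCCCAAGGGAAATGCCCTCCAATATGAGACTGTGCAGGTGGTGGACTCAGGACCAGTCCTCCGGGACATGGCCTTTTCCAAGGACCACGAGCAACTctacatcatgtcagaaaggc
The printed Epha1 and Plxna4 stretches hold 156 and 110 shared bases. The Ntn3 stretch holds 126 and begins with its start codon. Plxnb1, Sema4c, Unc5c and Ephb1 share 257, 334, 118 and 152 bases, all in their 5′ untranslated exon. Robo2, Ntn1, Sema6d, Plxna2 and Sema7a share none.

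Among the ligands, the semaphorins were the most counted family, with 563 counts in 18 of 20 genes. Semaphorins summed to 131 ± 17.9 CPM for WT and 139.8 ± 18.5 for KO (SD, n = 3 each), and the genotypes overlapped. Sema6d (chromosome 2, 124089969 to 124667770), a transmembrane semaphorin, led them with 17, 24 and 14 counts over the WT libraries and 36, 12 and 24 over KO. Its KO libraries span both the lowest and the highest value of the 6, and its log2 fold change of KO over WT was 0.34 (95% interval -0.39 to 1.06). Sema4c (chromosome 1, 36548639 to 36558349), a ligand of the plexin-B receptors, had 11, 14 and 16 counts over the WT libraries and 24, 17 and 9 over KO, again with the lowest and the highest value in KO. Sema7a (chromosome 9, 57940112 to 57962865), the membrane-anchored semaphorin of climbing fibre synapses, had 17, 5 and 13 counts over the WT libraries and 12, 14 and 9 over KO. The total was 35 in each genotype. The interval of its log2 fold change ran from -0.91 to 0.85, so changes within that range were not excluded.

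Most semaphorins stayed below the filter. The highest of them was Sema4g, a class 4 transmembrane semaphorin, with 8, 10 and 5 counts over the WT libraries and 8, 7 and 9 over KO. Sema3e, the secreted ligand of Plxnd1, had 12, 3 and 9 counts over the WT libraries and 2, 8 and 4 over KO. Sema3a, the repellent that collapses growth cones, had 8, 5 and 2 counts over the WT libraries and 3, 1 and 0 over KO, with WT replicate 3 inside the range of KO. Sema6a ran the other way, with 4, 1 and 4 counts over the WT libraries and 10, 7 and 6 over KO. All 3 KO libraries of Sema6a lay above all 3 of WT, at 4.37 ± 2.48 CPM for WT and 10.9 ± 1.60 for KO (SD, n = 3 each). Sema4f had 8, 3 and 5 counts over the WT libraries and 4, 2 and 4 over KO. Sema5a had 6, 3 and 1 against 6, 4 and 2. Sema6b, a relative of Sema6a, had 0, 4 and 3 against 6, 3 and 4. These 3 overlapped between the genotypes. Sema4d, the ligand of Plxnb1, had 2, 4 and 4 counts over the WT libraries and 4, 4 and 1 over KO. Of the other 7 with a count, the secreted Sema3c held 13 counts in all, Sema4a and Sema5b 11 each, Sema6c 8, Sema3d 5, and Sema3g and Sema4b 2 each. Sema3b and Sema3f had no count. In a single library a count of 0 allows up to 3 counts, which is 3.92 to 4.64 CPM in these libraries and covers counting error alone. For a gene at 0 in every library the limit over all of them together is lower.

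Of the semaphorin receptors, 3 of 9 plexins and 0 of 2 neuropilins were tested. Plexins summed to 93.6 ± 10.7 CPM for WT and 98.4 ± 13.1 for KO (SD, n = 3 each). Plxna2 (chromosome 1, 194618218 to 194816869), the receptor of Sema6a, had 11, 8 and 7 counts over the WT libraries and 17, 10 and 19 over KO. Just KO replicate 2 fell within the range of WT. Its log2 fold change was 0.78 (SE 0.39, 95% interval -0.04 to 1.60), with an edgeR quasi-likelihood adjusted p of 0.987. Plxna4 (chromosome 6, 32144268 to 32588192), a receptor of secreted semaphorins together with neuropilins, had 18, 17 and 22 counts over the WT libraries and 16, 19 and 25 over KO, so that the KO libraries surrounded those of WT. Plxnb1 (chromosome 9, 109095389 to 109119917), the Sema4d receptor, had 21, 19 and 19 counts over the WT libraries and 21, 9 and 14 over KO. Scaled to library size, all 3 KO values of Plxnb1 were below all 3 of WT, at 28.9 ± 2.27 CPM for WT and 20.8 ± 6.69 for KO (SD, n = 3 each). The step was small, with KO replicate 1 at 26.6 CPM and WT replicate 3 at 26.8 CPM. The log2 fold change of Plxnb1 was -0.46 (SE 0.32, 95% interval -1.13 to 0.21), with an edgeR adjusted p of 0.987.

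Plexins and neuropilins below the filter held few counts. Plxnd1, the receptor of Sema3e, had 9, 5 and 4 counts over the WT libraries and 11, 9 and 4 over KO. Plxnc1, the Sema7a receptor, had 5, 0 and 6 against 4, 5 and 0, and thus 1 library without a count in each genotype. The co-receptor Nrp2 had 2, 3 and 5 counts over the WT libraries and 10, 4 and 8 over KO, where KO replicate 2 lay within the WT range. Its relative Nrp1 had 13 counts in all. Plxnb2 held 17 counts, Plxna1 10, Plxnb3 9 and Plxna3 6.

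**Figure D1:**
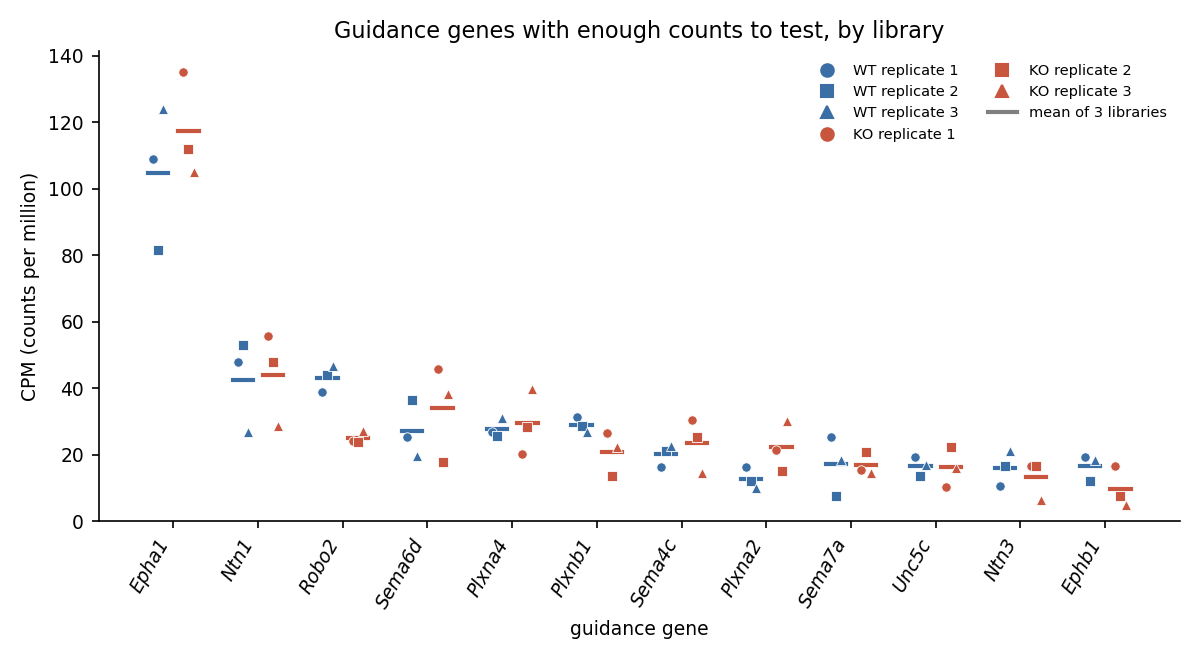
CPM of the 12 tested guidance genes (y axis) by gene (x axis, ordered by total count), with 1 point per library and a bar at the mean of 3 libraries for WT (blue) and KO (red). Epha1 stands above the rest at 105 and 118 CPM, and the KO points lie below the WT points for Robo2 and Plxnb1. The nearest points are 27.0 and 38.8 CPM for Robo2 but 26.6 and 26.8 CPM for Plxnb1 (KO and WT).

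The Slit and Robo system was read almost entirely through Robo2. Robo2 (chromosome 16, 73891839 to 74411825, minus strand, ENSMUSG00000052516) held 140 of the 169 Robo counts and averaged 43.0 ± 3.94 CPM for WT and 25.0 ± 1.76 for KO (SD, n = 3 each). The WT libraries spanned 26 to 33 counts and the KO libraries 16 to 19. Its log2 fold change was -0.79 (SE 0.26, 95% interval -1.34 to -0.23), with an unadjusted p of 0.00798 and an adjusted p of 0.917 in edgeR's quasi-likelihood test with Benjamini-Hochberg adjustment over 5320 genes. The interval is that of the single gene and is not corrected for the number of genes. Robo1, the paralog, had 7, 2 and 5 counts over the WT libraries and 9, 2 and 1 over KO, and its genotypes overlapped. Robo3 had 2 counts and Robo4, the endothelial member, 1. The Slit ligands had few counts, with 4 for Slit2, 3 for Slit1 and 1 for Slit3 over the 6 libraries. With 98.8% of uniquely aligned reads in no gene, so few counts do not show that Slit RNA was absent.

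Summed markers of Purkinje cells and of molecular layer interneurons lay lower in all KO libraries, by small steps. The sums of all other marker lists overlapped between the genotypes. The Purkinje cell markers, 17 of 17 of which had a count, summed to 3415 to 4048 CPM in WT and 2451 to 3362 CPM in KO, and without Itpr1 to 1832 to 2124 CPM and 1325 to 2037 CPM, which overlap. The 7 molecular layer interneuron markers summed to 263 to 303 CPM in WT and 220.3 to 259 CPM in KO. The Bergmann glia and astrocyte markers ran from 1612 to 1842 CPM in WT and from 1125 to 1686 CPM in KO, with overlap. Among single Purkinje cell markers Pcp2 lay higher in all KO libraries (log2 fold change 0.24, edgeR adjusted p 0.987). Its lowest KO value was 89.7 CPM and its highest WT value 89.4 CPM, and it shares 941 exon bases with an opposite-strand gene. Pvalb (-0.73) and Itpr1 (-0.47) lay lower in all KO libraries, each with an edgeR adjusted p of 0.917. Calb1 (-0.10) and Car8 (-0.33) overlapped. The granule cell markers overlapped, at 857 to 984 CPM and 931 to 1000 CPM. The part of these markers in the Robo2 values was not tested. In bulk tissue, fewer cells of a type and less RNA per cell cannot be told apart.

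Netrin ligands were carried by Ntn1 and Ntn3. Ntn1 (chromosome 11, 68209364 to 68400823), the secreted founder of the family, had 32, 35 and 19 counts over the WT libraries and 44, 32 and 18 over KO. In both genotypes replicate 3 was the low library, and the log2 fold change was 0.073 (95% interval -0.56 to 0.71). Ntn3 (chromosome 17, 24203848 to 24209531) had 7, 11 and 15 counts over the WT libraries and 13, 11 and 4 over KO, with the lowest value in KO and the highest in WT, and a log2 fold change of -0.28 (95% interval -1.19 to 0.64). Ntn4, a basement membrane netrin, had 14 counts in all, 7 of them in WT replicate 1, and Ntn5 4.

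Netrin receptors were read through the UNC5 family. Unc5c (chromosome 3, 141465216 to 141834924), the repulsive netrin receptor needed to lay out the cerebellum, had 13, 9 and 12 counts over the WT libraries and 8, 15 and 10 over KO, so that KO held the extremes. Unc5b had 4, 5 and 5 counts against 4, 9 and 3, and Unc5d 2, 0 and 4 against 4, 4 and 4. Both overlapped between the genotypes. Unc5a had 7 counts in all, and Dcc, the receptor that mediates attraction to netrin, 3. Netrins summed to 63.4 ± 11.1 CPM for WT and 61.1 ± 18.7 for KO, and their receptors to 28.8 ± 5.40 CPM and 32.0 ± 11.3 CPM (SD, n = 3 each).

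The A class of Eph receptors was dominated by Epha1, and the B class by Ephb1. Epha1 (chromosome 6, 42358487 to 42373268, minus strand) had 73, 54 and 88 counts over the WT libraries and 107, 75 and 66 over KO, or 105 ± 21.5 and 118 ± 15.9 CPM (SD, n = 3 each), and the genotypes overlapped. Its log2 fold change was 0.16 (95% interval -0.26 to 0.58), the narrowest interval of the 12. Zyx, which lies opposite its last exons as printed above, had 6, 2 and 6 counts over the WT libraries and 6, 3 and 4 over KO. Since the strand counted is not known, the Zyx counts do not show which gene the Epha1 counts come from, and this was not tested. A further antisense gene, 2010310C07Rik, spans 211 exon bases of Epha1 but shares 0 exon bases with it, and it had no count. Of the 587 counts in the 9 EphA genes, 463 were in Epha1.

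The neuronal A class receptors were far lower. Epha4, which meets both ephrin classes, had 2, 10 and 7 counts over the WT libraries and 8, 6 and 3 over KO. Epha7 had 7, 8 and 5 against 6, 3 and 4, and Epha8 3, 10 and 3 against 3, 4 and 3. All 3 overlapped between the genotypes. Epha5 held 11 counts in all, Epha10 8, Epha6 6, Epha3 3, all in KO replicate 1, and Epha2 1.

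Ephb1 (chromosome 9, 101922128 to 102354693) had 13, 8 and 13 counts over the WT libraries and 13, 5 and 3 over KO. KO replicate 1 was as high as the highest WT library in counts, and the other two lay below all of WT. Its log2 fold change was -0.73 (SE 0.46, 95% interval -1.70 to 0.24), with an edgeR adjusted p of 0.987. Without KO replicate 1 it was -1.42 (edgeR unadjusted p 0.0264, adjusted 0.947), and without KO replicate 3 it was -0.44. Ephb2, a receptor of dendritic spines, had 4, 2 and 2 counts over the WT libraries and 10, 4 and 4 over KO, where the genotypes did not overlap once scaled to library size. Ephb4 and Ephb6 had 3 counts each and Ephb3 2.

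Ephrins, the ligands, had few counts. The most counted were Efnb2, with 8, 10 and 2 counts over the WT libraries and 3, 6 and 12 over KO, and Efna3, with 3, 6 and 3 against 11, 4 and 3. The genotypes overlapped in both. Efna5, the ephrin of topographic maps, held 11 counts, Efnb3 6, and Efnb1 4, all in KO. Efna2 had no count in WT and 5, 0 and 2 counts in KO. Efna1 and Efna4 had no count in any library.

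**Figure D2:**
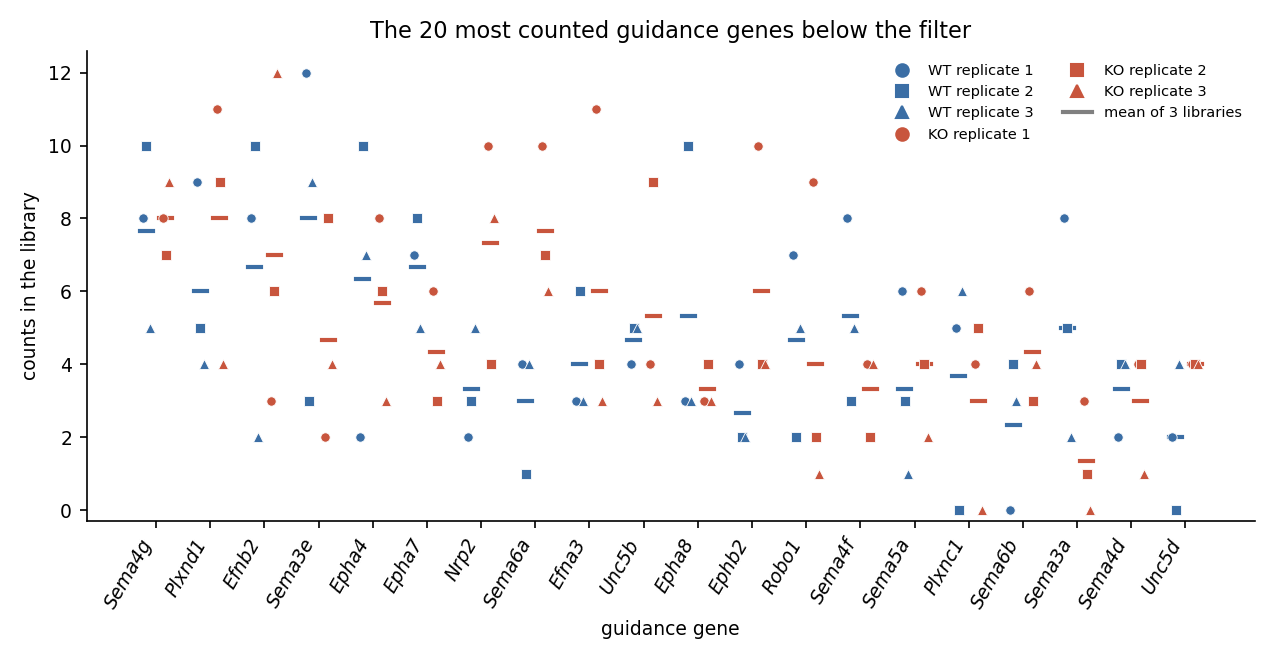
Counts per library (y axis) of the 20 most counted guidance genes below the filter (x axis), with 1 point per library and a bar at the mean of 3 libraries for WT (blue) and KO (red). Values run from 0 to 12 counts, and the genotypes are apart for Sema6a at 1 to 4 against 6 to 10 counts.

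Compared per length, the guidance genes covered a wide range of levels. Epha1 had 28.3 CPM per kilobase of exon over the 6 libraries and Ntn1, next in order, 6.89. Sema7a followed at 5.14, Sema4c at 4.73, Efna3 at 2.91, Sema6d at 2.89, Ntn3 at 2.85, Plxnb1 at 2.59, Plxna4 at 2.03 and, after Robo2, Ephb1 at 1.87. Robo2, the third in total counts, was thus the tenth per length. Epha1 and Ntn1 differed by 21.4, more than the SD of either over its 6 libraries (at most 4.66), and so did Sema4c and Efna3, which differed by 1.82 (SD at most 1.56). All other neighbours in the order of the 65 genes differed by less than the larger SD of the pair. Slit2 was the lowest gene with a count, at 0.0383.

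Genes that share exon with an opposite-strand gene made up a larger part of the guidance counts than of the guidance exons. The 13 such genes are 18.8% of the 69, with 16.9% of the exon bases and 43.4% of the counts. Without Epha1 the 12 others held 29.4% of the counts on 16.3% of the exon bases. Over all matched genes the share was 74.4% of counts on 28.2% of exon bases. Of the 13, 7 (53.8%) passed the filter, against 5 (8.93%) of the 56 without such exon, and over all matched genes 45.4% and 15.3% passed. How far counts from the partner enter these values was not tested.

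**Figure D3:**
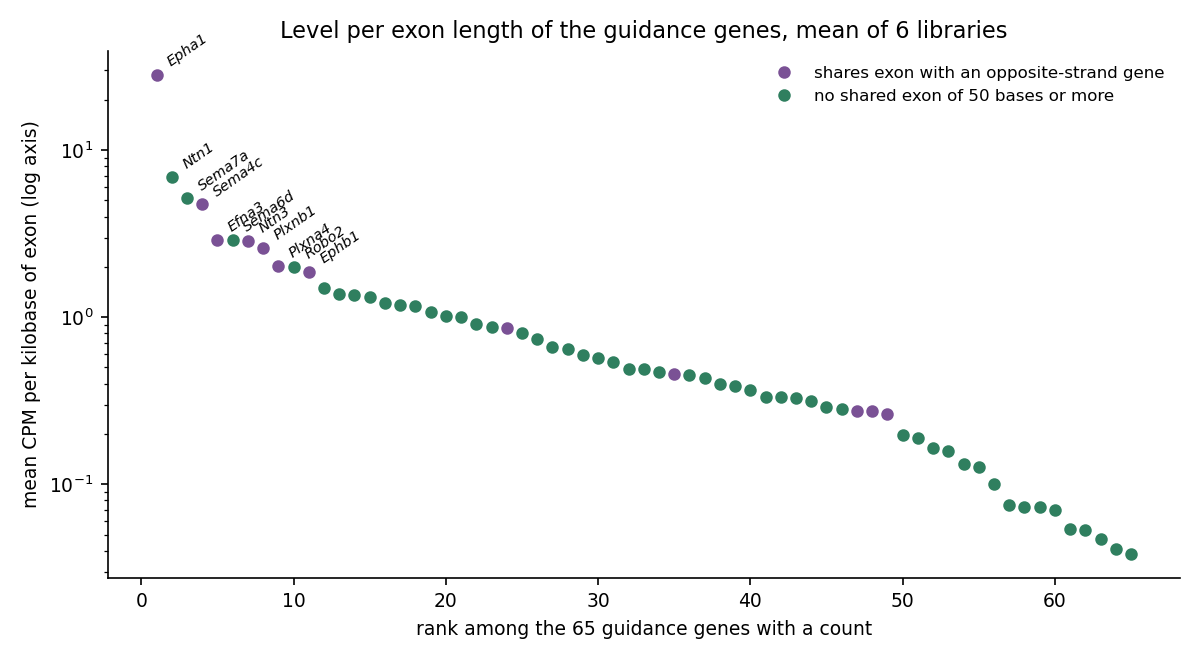
Mean CPM per kilobase of exon over 6 libraries (y axis, log scale) against rank (x axis) for the 65 guidance genes with a count, in purple for an exon overlap of 50 bases or more with an opposite-strand gene and in green otherwise. Epha1 leads at 28.3, and 7 of the 11 named genes are purple.

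Across all genes the comparison of KO with WT gave no call. Of 5320 genes tested, 0 had an edgeR adjusted p under 0.05 (0%), and 0 of the 12 guidance genes did. DESeq2 and limma-voom also called 0 guidance genes. At an unadjusted p under 0.05 there was 1 guidance gene, Robo2, lower in KO. Over all tested genes 4.62% did so in either direction, 3.05% lower and 1.58% higher in KO, so 1 gene of 12 is no result about the guidance genes as a group. The genotypes did not overlap for 2 of the 12, Robo2 and Plxnb1, both lower in KO, and 0 were apart on the higher side. Of all tested genes 10.7% did not overlap, 5.85% lower and 4.83% higher in KO. Of the 12, 6 lay above 0 and 6 below, with a median log2 fold change of 0.0088 beside 0.0019 over all tested genes. All but Robo2 had an interval that includes 0.

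**Figure D4:**
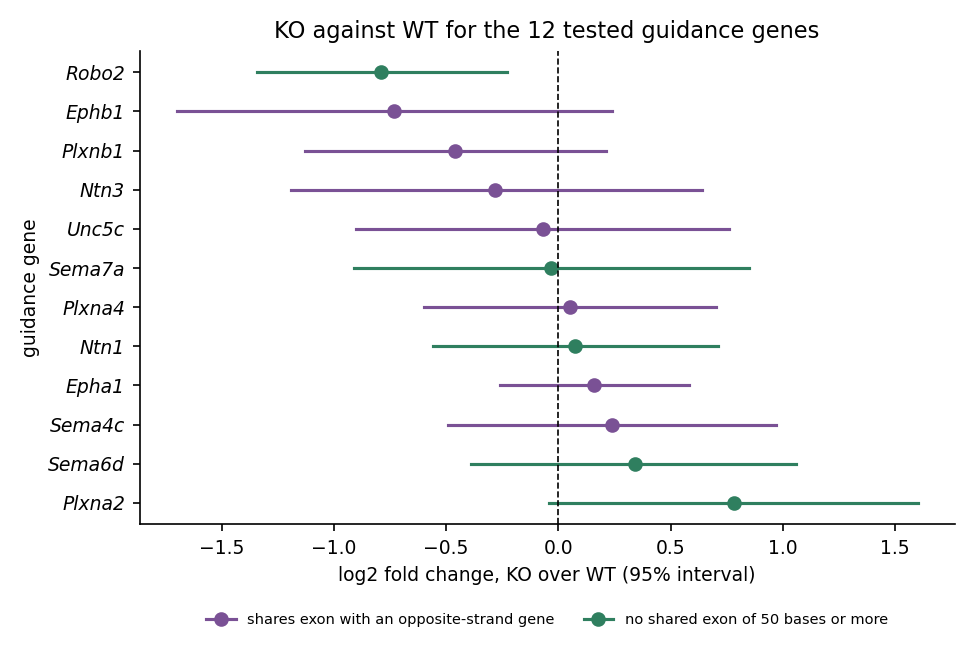
Log2 fold change of KO over WT (x axis) with its 95% interval for the 12 tested guidance genes (y axis), in purple where exon is shared with an opposite-strand gene and in green elsewhere. The interval leaves out 0 for Robo2, at -0.79, and reaches from -0.04 for Plxna2, at 0.78. The intervals are not corrected for the number of genes.

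Of the 53 guidance genes with counts below the filter, 3 had KO libraries all above WT once scaled to library size, Sema6a, Ephb2 and Sema3c, and 0 had them all below. Of all 11220 genes with counts below the filter, 3.48% lay apart with KO higher and 4.17% with KO lower, so 3 of 53 is no result about the guidance genes as a group. Ephb2 was apart by the least step, with a lowest KO value of 5.98 CPM and a highest WT value of 5.96 CPM. Sema3c had 2, 0 and 2 counts over the WT libraries and 4, 3 and 2 over KO and is named here because of that pattern. With no filter on low counts, 5 of the 65 guidance genes with a count had an edgeR unadjusted p under 0.05, against 3.86% of all genes in that fit: Robo2 and Sema3a lower in KO, and Plxna2, Sema6a and Efna2 higher. The authors' deposited edgeR table, which tested genes of any depth, held 4 of the 69 at an unadjusted p under 0.05, against 1.9% of all its genes. These shares are not on a like base, since 67.7% of all genes but 94.2% of the guidance genes had a count. The 4 in the authors' deposited edgeR table were Robo2 (log2 ratio of WT over KO 0.77, p = 0.00751), Sema6a (-1.30, p = 0.0213), Efna2 (-4.24, p = 0.0411) and Sema3a (1.85, p = 0.0426). The authors' deposited DESeq table held 2 of the 69 at that level, Robo2 (fold of KO over WT 0.592, p = 0.0189) and Sema6a (2.54, p = 0.0401), against 1.86% of its genes with a p.

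**Figure D5:**
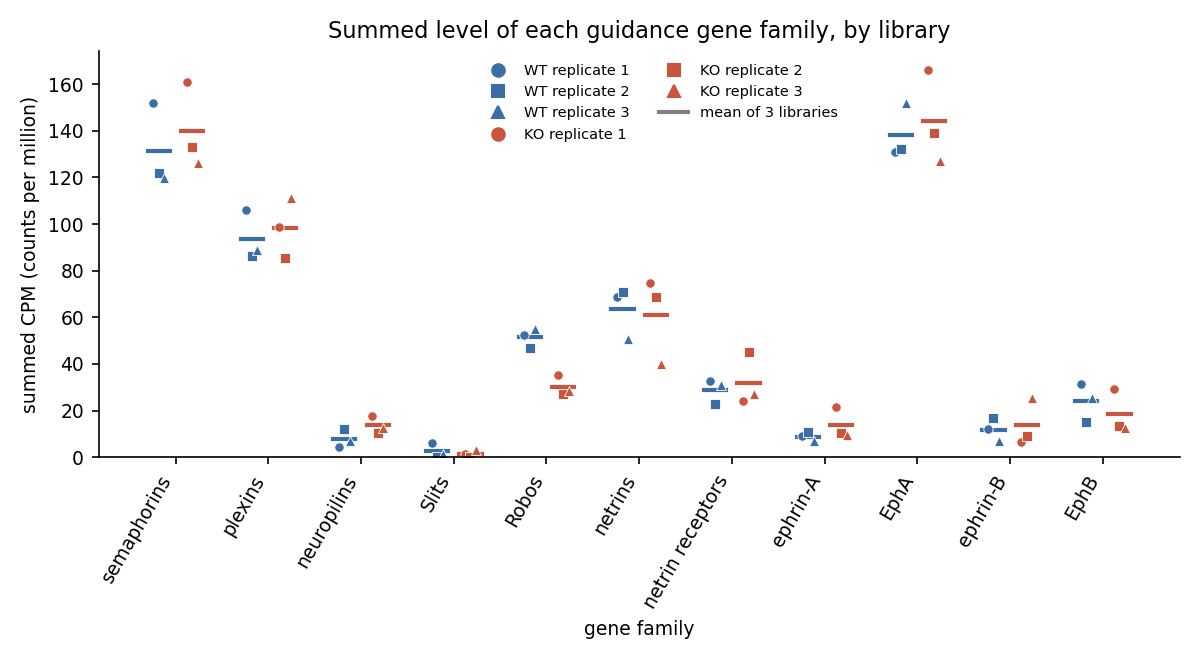
Summed CPM (y axis) of each guidance gene family (x axis), with 1 point per library and a bar at the mean of 3 libraries for WT (blue) and KO (red). Robo receptors are the family whose genotypes do not overlap, at 46.9 to 55.0 CPM in WT and 26.9 to 35.4 CPM in KO, and Robo2 holds 140 of their 169 counts.

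Summed by family, the genotypes overlapped in 10 of 11 families. The Robo receptors averaged 51.3 ± 4.12 CPM for WT and 30.3 ± 4.51 for KO (SD, n = 3 each). The neuropilins averaged 7.87 ± 3.88 and 13.6 ± 3.71 CPM, and the EphB receptors 23.9 ± 8.19 and 18.4 ± 9.26 CPM (SD, n = 3 each). All 35 ligands together summed to 218 ± 30.8 CPM for WT and 229.8 ± 31.3 for KO, and all 34 receptors to 344 ± 25.5 and 337 ± 29.4 CPM (SD, n = 3 each). These sums are given as a description, with no test.

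None of the other genes of the pathway passed the test. Of 33 further guidance receptors, ligands and co-receptors on a separate list, 13 were tested, 4 above 0 and 9 below, with a median log2 fold change of -0.09, where 49.7% of all tested genes lay below 0. The 1 of them at an unadjusted p under 0.05, a level that 4.62% of all tested genes reached, was Nrcam, an adhesion molecule that joins neuropilin receptor complexes. Nrcam had 31, 32 and 21 counts over the WT libraries and 16, 20 and 12 over KO, a log2 fold change of -0.84 (SE 0.30) with an edgeR adjusted p of 0.987. Scaled to library size its genotypes overlapped, with KO replicate 2 at 29.9 CPM and WT replicate 3 at 29.6 CPM.

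Of 60 intracellular effectors of guidance receptors, 28 were tested, 7 above 0 and 21 below, with a median of -0.26, beside the same 49.7% below 0. At an unadjusted p under 0.05 there were 3 of the 28, all lower in KO, beside the 3.05% given above, and in DESeq2 none of these 3 did (unadjusted p 0.0815 to 0.118). They were Evl, an Ena/VASP protein that extends actin filaments, Fyn, a Src family kinase recruited by several guidance receptors, and Rock2, a kinase of growth cone collapse. Evl had 33, 33 and 31 counts over the WT libraries and 34, 17 and 13 over KO, with a log2 fold change of -0.65 (SE 0.29), and shares 278 exon bases with an opposite-strand gene. Fyn had 17, 10 and 21 counts against 11, 10 and 6, at -0.86 (SE 0.38). Rock2 had 25, 16 and 17 counts against 14, 12 and 10, at -0.72 (SE 0.33). Scaled to library size, the KO libraries of all 3 lay below those of WT, and each had an edgeR adjusted p of 0.987. As the 3 were picked by a low p, this separation is no further result. The nearest values (KO and WT) were 15.0 and 15.1 CPM for Fyn, 43.0 and 43.7 CPM for Evl. Over the 28 tested effectors 6 lay apart with KO lower and 0 with KO higher, beside 5.85% and 4.83% of all tested genes. The effectors include genes with many other roles. The part of the cell type markers in these values was not tested.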

How the data were processed

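RNA of the microdissected layers was sequenced in 6 libraries, and the authors deposited raw counts for each gene symbol and library. Alignment was with TopHat and counting with HTSeq 0.9.1, on GRCm38 (mm10), per the submitters' processing notes, which also name DESeq and edgeR. Libraries were made from TRIzol RNA with a TruSeq mRNA kit, per the labels' protocols. The strand setting and the annotation counted are not stated in the sources. Rows that name no gene, 98.8% of uniquely aligned reads, were left out.

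Counts were fitted by genotype alone with glmQLFit and glmQLFTest of edgeR 4.0.16 (R 4.3.3, TMM factors of 0.954 to 1.04, filterByExpr with 10 as minimum count). A call needed an adjusted p (Benjamini-Hochberg, over all tested genes) under 0.05. Standard errors are those implied by the F statistic, and CPM uses library sizes scaled by TMM. The fit was also run on counts simulated from the means and fitted dispersions of these data, to check the direction of the fold changes. No result here rests on that run. GENCODE M21 gave positions and exon overlaps of at least 50 bases, with 23376 of 24421 symbols and all 69 members matched.

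The authors' deposited DESeq table gives a normalised mean signal per genotype, a fold (ratio, KO over WT) with its p-value. The authors' deposited edgeR table gives a log2 ratio (WT over KO) with its p-value and a log2 CPM. Library values are printed for all tested members and for the 20 most counted untested ones, and pathway genes are named at an unadjusted p under 0.05. Members and lists were chosen with earlier results of these data known. The replicates of each genotype are called biological in the series text. Alternatives were RLE and upper quartile factors, DESeq2 1.42.0, limma-voom (limma 3.58.1), other filters and library sizes, a replicate block, genes with no opposite-strand exon, and libraries left out.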

Additional observations from a re-analysis of the deposited data

How the results depend on the processing

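No guidance gene was called under any of the 16 alternatives. Robo2 kept its direction in all 16, from -0.86 to -0.72 on the log2 scale, with unadjusted p from 0.00622 to 0.0396. The count of calls over all genes was 6 with no filter, 1 with replicate 3 of each genotype left out (the libraries with Y-linked counts), and 0 to 1 with any single library left out, and the cause was not tested. The guidance median was 0.14 among genes with no opposite-strand exon, where 5 guidance genes were tested. With no filter, 5 of 65 guidance genes had an unadjusted p under 0.05 (Efna2, Plxna2, Robo2, Sema3a and Sema6a, background 3.86%). Plxna2 passed that level in 4 alternatives and Ephb1 in 1, without KO replicate 1. Of the pathway genes, Nrcam passed it in 15 of 16 alternatives, Evl in 9 of 15, Fyn in 7 of 15 and Rock2 in 7 of 16.

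Of 16 named genes, 6 changed sign somewhere, all with intervals across 0. Leaving out each library, Ntn1 ran from -0.18 to 0.29, Ntn3 from -0.51 to 0.021, Plxna4 from -0.22 to 0.27, Sema4c from -0.015 to 0.47, Sema7a from -0.37 to 0.35 and Unc5c from -0.39 to 0.20. The other genes kept their sign when each library was left out, but Epha1 ran from 0.015 to 0.30, Sema6d from 0.034 to 0.63, Plxna2 from 0.52 to 0.99, Plxnb1 from -0.71 to -0.24, Ephb1 from -1.42 to -0.44 and Evl from -1.05 to -0.46. The far ends came without WT replicate 2 for the low value of Epha1, without KO replicate 1 for the lowest values of Sema6d, Plxnb1, Ephb1 and Evl, and without KO replicate 3 for the low value of Plxna2. Without both libraries with Y-linked counts Ntn3 was 0.27, Plxna4 -0.13 and Sema7a 0.11. With limma-voom Plxna4 was -0.0022 and Sema7a 0.09, with all uniquely aligned reads as library size Plxna4 was -0.0088, and among genes with no opposite-strand exon Sema7a was 0.041.

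With the replicate block 0 genes were called and the guidance median was 0.02. Deviations of equal replicate numbers correlated at 0.143, 0.0795 and 0.122, each of the 6 libraries correlated best with its own number, and the labels name no pairing. Counts in genes were few: the median guidance gene had 13 counts over 6 libraries, while 98.8% of uniquely aligned reads fell in no gene.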
